A study of Mus musculus with 8 samples.

Results

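Snai1, Snai2, Twist1, Twist2, Zeb1 and Zeb2, the transcription factors best known for driving epithelial-mesenchymal transition (EMT), were followed in serum-starved and serum-stimulated NIH3T3 cells with and without cordycepin. The members were all non-control probes that carry 1 of these 6 gene names, which gave 7 of the 55681 probes on the array. Snai1, Snai2, Twist1, Twist2 and Zeb1 had 1 probe each and Zeb2 had 2, and all 7 probes were well above background on all 8 arrays. NIH3T3 is an immortalised line of mouse embryonic fibroblasts, and cordycepin is 3′-deoxyadenosine, an adenosine analogue.

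All cells were grown in 10% newborn bovine serum and kept in 0.5% serum for 24 h before any treatment. The group called cordycepin plus serum (3 arrays) received 20 µM cordycepin in DMSO for 90 min, with newborn bovine serum present for the final 30 min. The figure legend of the study instead places the 30 min of serum after the 90 min of cordycepin, a longer exposure. The group called serum (3 arrays) received the vehicle, 0.1% DMSO, in place of cordycepin and the same 30 min of serum. The group called no serum (2 arrays) was starved and received no serum. The paper does not state whether this group also received DMSO. Cordycepin in starved cells without serum was not among the conditions, and what is said of cordycepin below holds for cells that also saw serum. The replicates with and without cordycepin were independent per the study's design. The sources used here do not say this of the 2 no serum samples, whose spread may be technical. All cells belonged to a single fibroblast line, which is a mesenchymal cell to begin with.

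Snai, Twist and Zeb proteins bind the short DNA element known as the E-box. Snai1 (Snail) and Snai2 (Slug) are zinc finger repressors, Twist1 and Twist2 are basic helix-loop-helix factors that pair with E proteins, and Zeb1 and Zeb2 carry zinc fingers at both ends and a homeodomain between them. In epithelial cells they silence genes of cell adhesion such as E-cadherin. In fibroblasts they are part of the normal repertoire, and Snai1 protein is known for its fast turnover.

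The probes that carry these measurements are shown by the first 30 of their 60 bases, so that each value can be tied to the stretch of the transcript it reads. In mm9, the build of the array files, the Snai1 probe lay at chromosome 2, 167368073 to 167368132, and the Snai2 probe at chromosome 16, 14709361 to 14709420. The Twist1 probe lay at chromosome 12, 34644411 to 34644470, and the Twist2 probe at chromosome 1, 93744519 to 93744577. The 2 Zeb2 probes lay at chromosome 2, 44842774 to 44842833 and 44840038 to 44840097, on the reverse strand. The Zeb1 probe covers bases 4952 to 5011 of its transcript.
Snai1: gtttcacagcagtttaactgtctcagaagg
Snai2: gtgaggtacggttaatagccacgcctatat
Twist1: atggtaacaatcagaggaattttaacacct
Twist2: ttattgagatattttaccagctaagtgact
Zeb2 probe 1: ctgtattttcgactgaaaattccactttct
Zeb2 probe 2: tacgtgggggaaaatatatgtgaaagcaat

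Among the 21 pairs of member probes, the longest run of bases that 2 probes had in common was 4 to 7, so no probe held a long stretch of a paralogue's probe. The 2 Zeb2 probes read the same transcript at bases 5433 to 5492 and 8169 to 8228.

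The promoters of Snai1, Twist1 and Twist2 are shown because these were the genes with a single listed start site. Each sequence is the 250 bases before the start in RefSeq (GRCm38.p6), in the direction of transcription, on the forward strand. Capitals mark CACCTG (the E-box preferred by Snail and Zeb factors), CCAAT and TATAAA, searched on both strands. The windows are chr2:167537945-167538194 for Snai1, chr12:33957421-33957670 for Twist1 and chr1:91801211-91801460 for Twist2.
Snai1: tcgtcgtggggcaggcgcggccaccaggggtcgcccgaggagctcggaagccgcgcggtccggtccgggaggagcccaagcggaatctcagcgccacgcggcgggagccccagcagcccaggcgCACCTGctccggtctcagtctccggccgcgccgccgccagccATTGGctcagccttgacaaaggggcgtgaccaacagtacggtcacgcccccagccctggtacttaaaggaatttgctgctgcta
Twist1: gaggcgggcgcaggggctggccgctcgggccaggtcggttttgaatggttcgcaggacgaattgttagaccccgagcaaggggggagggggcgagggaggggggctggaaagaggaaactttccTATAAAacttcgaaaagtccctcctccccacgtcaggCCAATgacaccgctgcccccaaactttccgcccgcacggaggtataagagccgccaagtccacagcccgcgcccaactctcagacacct
Twist2: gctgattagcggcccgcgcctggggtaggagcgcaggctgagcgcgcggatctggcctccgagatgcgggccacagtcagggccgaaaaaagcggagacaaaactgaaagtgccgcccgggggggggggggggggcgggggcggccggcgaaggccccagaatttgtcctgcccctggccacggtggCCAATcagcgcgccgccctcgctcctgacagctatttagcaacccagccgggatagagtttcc

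The Snai1 window held 1 CACCTG, whose first base lies 126 bases before the start, and neither Twist window held one. Of 32851 RefSeq promoters, 17.2% held CACCTG within the same 250 bases. A CCAAT was present in each of the windows of Snai1, Twist1 and Twist2, 84, 89 and 63 bases before the start, against 33.8% of all promoters. TATAAA occurred in the Twist1 window, against 12.4% of all promoters. Zeb2 had 4 listed starts, and their windows held CCAAT at 1 start and no CACCTG or TATAAA. The GC box (GGGCGG) occurred in the windows of Twist1, Twist2 and 3 Zeb2 starts but not in that of Snai1, against 32.7% of all promoters. These are matches of letters and say nothing of binding.

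Signals are given as log2 processed signal relative to the 75th percentile of the array, which is therefore at 0. That percentile was between 350.5 and 802.2, an array had 51.1 to 57.1% of its probes above background, and saturation was not seen. Correlations within a group were 0.992 to 0.995. The fibroblast label was checked with markers: 12 of 12 fibroblast markers were above background on all 8 arrays, and none was called with cordycepin. Of 14 epithelial markers, 7 (Cdh1, Krt18, Krt19, Ocln, Cldn3, Dsp and Grhl2) were above background on no array, while Cldn7, Esrp1 and Ovol2 were on all 8 and Krt8 on 7. Among immune and endothelial markers, Cd68, Cd3e, Pecam1 and Kdr were above background on all 8 arrays, Ptprc on 3 and Cdh5 on none. Cd68, a lysosomal protein used as a macrophage marker, rose 8.20-fold with cordycepin (adjusted p = 5.17e-05 in limma), and its part in the results below was not tested. Differences were tested with limma over 30852 probes, each measured above background in all arrays of 1 or more groups. A call needed an adjusted p under 0.05 together with a log2 difference of 1 or more in either direction.

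The first question was whether these factors change with cordycepin when serum is present in both groups. Snai1 fell about 4-fold, and it was the single member called. All 6 genes were lower with cordycepin on the probe with the highest mean, and in each of them every cordycepin array lay below every serum array. Snai2 and Twist1 were 1.46-fold and 1.51-fold lower, with an adjusted p under the threshold but a difference smaller than the minimum. Twist2, Zeb1 and Zeb2 were lower by a smaller amount and did not pass the adjusted p.

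Snai1 had normalised log2 signals of 1.92, 2.49 and 1.86 on the cordycepin plus serum arrays, 4.27, 4.28 and 3.76 on the serum arrays, and 4.40 and 4.11 on the no serum arrays. The cordycepin arrays stood apart from the other 5 arrays, and the serum and no serum arrays overlapped. The mean was 2.09 ± 0.35 (SD, n = 3) with cordycepin and 4.10 ± 0.30 (SD, n = 3) with serum alone. The log2 difference was -2.01 ± 0.22 (SE), a fall of 4.03-fold, with an adjusted p of 0.000359 in limma. Ranked from the most negative difference, Snai1 stood at place 130 of all 30852 probes and at place 66 of 13413 RefSeq mRNA genes with 1 probe each. On the linear scale, before centring, its processed signal was 1328, 3271 and 1673 with cordycepin and 12060, 9225 and 8072 with serum.

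**Figure D1:**
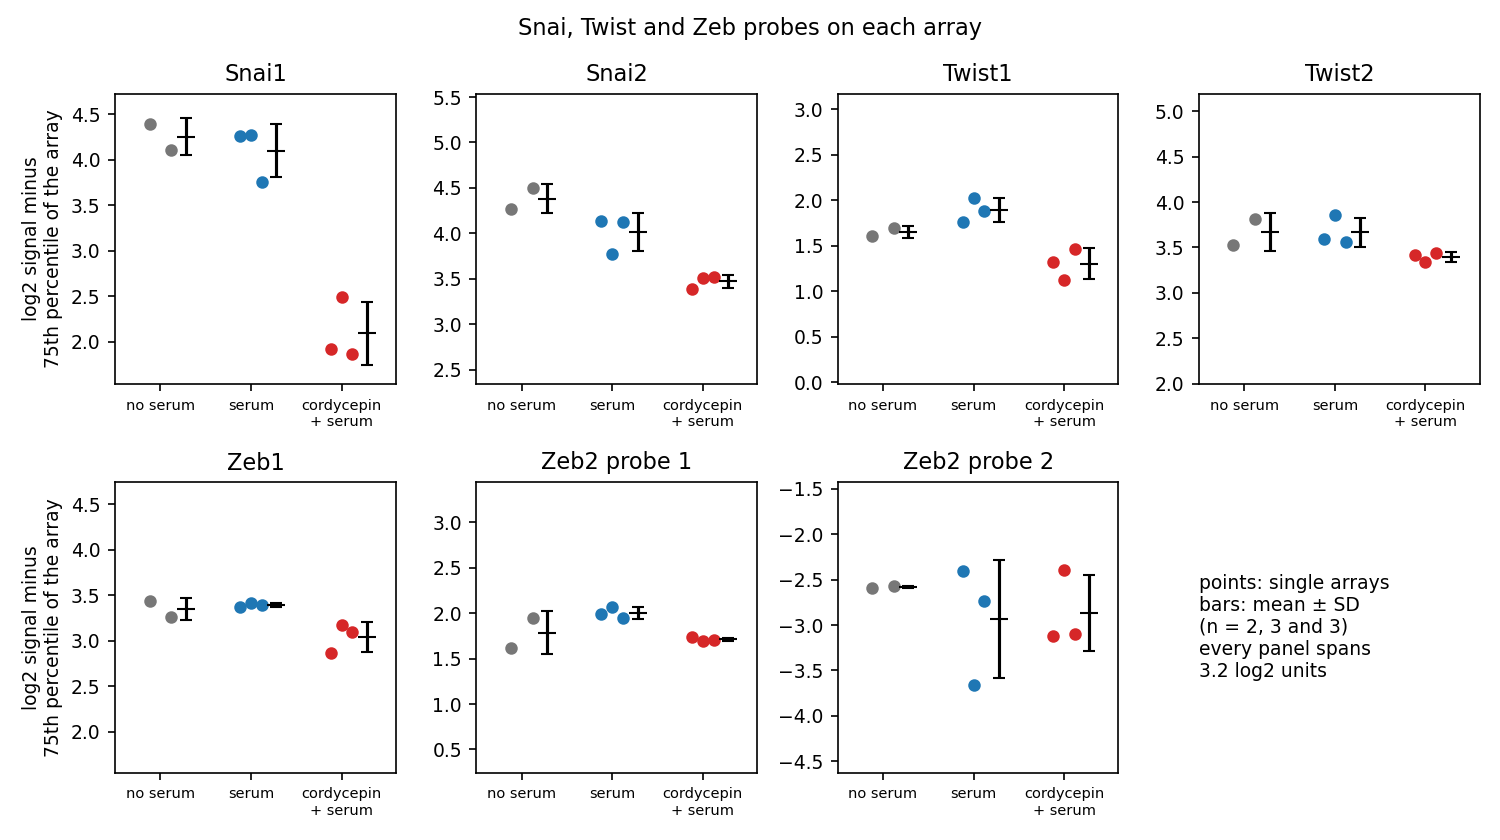
Normalised log2 signal (log2 processed signal minus the 75th percentile of the array, y axis) of the 7 probes on each array (points) in the 3 groups (x axis), with bars for the mean ± SD, over n = 2 no serum, 3 serum and 3 cordycepin plus serum arrays. Snai1 lies at 1.86 to 2.49 with cordycepin and at 3.76 to 4.40 on the other arrays, while the shifts of the other members are smaller on axes of the same span.

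Snai2, which shares its zinc finger domain type with Snai1 and marks migrating neural crest, had values of 3.38, 3.50 and 3.52 with cordycepin, 4.14, 3.77 and 4.12 with serum, and 4.27 and 4.495 without serum. The 3 groups did not overlap with one another, and the cordycepin arrays were the lowest. The difference between cordycepin plus serum and serum was -0.54 ± 0.14 (SE), with an adjusted p of 0.0259 in limma. Its 95% interval ran from -0.86 to -0.23, which does not reach the minimum of 1 for a call.

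Twist1, a regulator of mesoderm and skull development, had values of 1.32, 1.12 and 1.47 with cordycepin, 1.76, 2.03 and 1.89 with serum, and 1.61 and 1.70 without serum. The cordycepin arrays were again the lowest. The difference from serum was -0.59 ± 0.13 (SE), with an adjusted p of 0.0139 in limma and a 95% interval from -0.89 to -0.29. Twist2, its close relative in dermal and connective tissue cells, had values of 3.42, 3.34 and 3.44 with cordycepin, 3.59, 3.85 and 3.56 with serum, and 3.53 and 3.82 without serum. These groups lay close together, with the highest cordycepin array just under the lowest of the others. The Twist2 difference was -0.27 ± 0.13 (SE), with an adjusted p of 0.19 in limma and a 95% interval from -0.57 to 0.03.

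Zeb1, a repressor of epithelial genes held in check by the miR-200 family, had values of 2.86, 3.18 and 3.09 with cordycepin, 3.37, 3.41 and 3.39 with serum, and 3.43 and 3.26 without serum. The serum arrays were tightly grouped above all cordycepin arrays. The difference was -0.35 ± 0.12 (SE), with an adjusted p of 0.0779 in limma and a 95% interval from -0.62 to -0.08.

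Zeb2, the relative of Zeb1 that binds Smad proteins, had values of 1.73, 1.70 and 1.71 on its brighter probe with cordycepin, 1.99, 2.07 and 1.94 with serum, and 1.62 and 1.95 without serum. Here the 2 no serum arrays spanned the range of the cordycepin arrays. The difference from serum was -0.29 ± 0.12 (SE), with an adjusted p of 0.129 in limma and a 95% interval from -0.56 to -0.02. The dimmer Zeb2 probe had -3.12, -2.39 and -3.09 with cordycepin, -2.40, -3.66 and -2.74 with serum, and -2.59 and -2.57 without serum. Its groups overlapped, and its difference was 0.07 ± 0.33 (SE), with an adjusted p of 0.912 in limma, so the 2 Zeb2 probes differed in sign. The 95% interval of the dimmer probe, from -0.69 to 0.82, contained the value of the brighter probe.

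Across the array, 2.87% of the probes tested were called lower and 2.5% of RefSeq mRNA genes, against 1 of the 6 members. Every cordycepin array lay below every serum array for 13.4% of probes and for 15% of RefSeq mRNA genes, against 6 of 6 members. An adjusted p under 0.05 with a lower value, at any size, was found for 7.36% of probes and 7.77% of RefSeq mRNA genes, against 3 of 6 members. The median log2 difference was -0.45 over the 6 genes, 0.07 over RefSeq mRNA genes and 0.10 over all probes. The members were chosen with earlier results of these data known, and these counts describe them without a test. The arrays measured bulk RNA, so fewer cells with a transcript and less of it per cell cannot be told apart.

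The call for Snai1 held under all 16 alternatives, with differences from -2.21 to -1.90 and adjusted p from 2.44e-05 to 0.00276 in limma. For Snai1, Snai2 and Twist1, each with 1 probe, no minimum fold change and the median of a gene's probes only repeat the main fit. The counts of alternatives include these settings, which could not alter the adjusted p. The adjusted p of Snai2 was under 0.05 in only 7 of the 16 alternatives. It was 0.0938 with no filter on dim probes, 0.0559 with the row of the slide as a block, 0.0589 with the replicate block, and 0.0571 to 0.0967 without any one of the cordycepin arrays or without serum replicate 1 or 3. The adjusted p of Twist1 was under 0.05 in 14 of 16, with 0.0584 when dim probes were kept. With each array centred on its spike-in probes, the difference was -0.61 for Snai2 and -0.66 for Twist1, and the adjusted p of both was 1. Within the first row of the slide, the Snai1 difference was -2.06 and within the second it was -2.16. The other 5 genes were also lower with cordycepin in both rows, by values from -0.70 to -0.22, on the brighter Zeb2 probe.

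**Figure D2:**
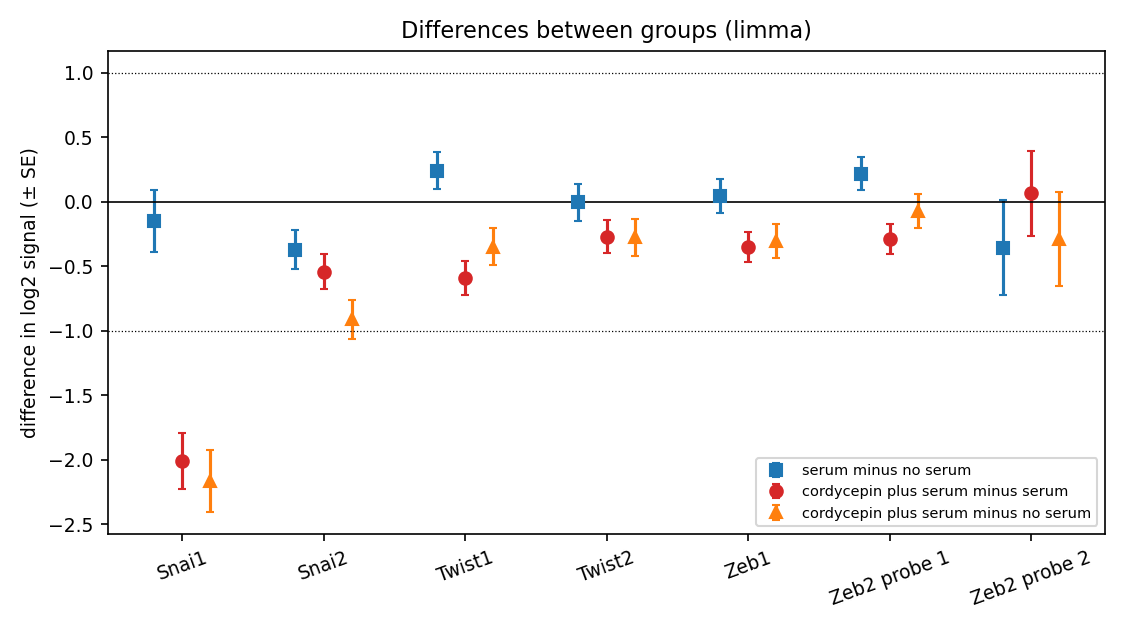
Difference in normalised log2 signal with its SE from limma (y axis) for the 7 probes (x axis) in the 3 comparisons, with dotted lines at the minimum size for a call. Snai1 lies at -2.01 and -2.16 in both comparisons with cordycepin and at -0.15 between serum and no serum, and no other point lies beyond the lines.

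Whether 30 min of serum changes these factors was asked by comparing serum with no serum. None of the 6 genes was called in limma, and the 1 gene with an unadjusted p under 0.05 was Snai2. Across the array, 0.849% of probes were called higher and 0.878% lower. The Snai1 difference was -0.15 ± 0.24 (SE), with an adjusted p of 1.00 and a 95% interval from -0.71 to 0.41. Snai2 was lower with serum on all arrays, by -0.37 ± 0.15 (SE), and Twist1 was higher on all arrays, by 0.24 ± 0.14 (SE) but -0.11 with centring on spike-in probes, with adjusted p of 0.436 and 0.766 in limma. Such a lack of overlap, with serum lower, occurred for 13.6% of probes, and with serum higher for 9.71%.

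The remaining members were not called either. Twist2 differed by 0.00 ± 0.14 (SE), Zeb1 by 0.05 ± 0.13 (SE) and the brighter Zeb2 probe by 0.22 ± 0.13 (SE). With centring on spike-in probes the median of all probes in this comparison moved from -0.02 to -0.36, and the differences of Twist1, Zeb1 and the brighter Zeb2 probe turned to -0.11, -0.30 and -0.13. The sign of these 3 genes with serum thus depended on the centring. The median over the 6 genes was 0.02, beside -0.02 over all probes.

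The level left with cordycepin was then set against that of starved cells that saw neither cordycepin nor serum. This comparison uses the same cordycepin plus serum arrays as the comparison above and is not independent of it. Snai1 was 4.47-fold lower than in starved cells, a log2 difference of -2.16 ± 0.24 (SE), with an adjusted p of 0.00068 in limma. It stood at place 30 from the lowest among 13413 RefSeq mRNA genes. In this comparison 2.99% of probes and 1.98% of RefSeq mRNA genes were called lower.

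Snai2 was lower than in starved cells by -0.91 ± 0.15 (SE), with an adjusted p of 0.00495 in limma, and its difference was just under the minimum for a call. Without the first no serum array it was -1.03, with an adjusted p of 0.019, and Snai2 was then called lower beside Snai1. Without the second no serum array it was -0.80, with an adjusted p of 0.0552. Twist1, Twist2 and Zeb1 differed by -0.35, -0.27 and -0.30, each with SE between 0.13 and 0.14 and adjusted p from 0.165 to 0.262 in limma. The brighter Zeb2 probe differed by -0.07 ± 0.13 (SE). Centring on spike-in probes moved the median of all probes from 0.08 to -0.33, and with it Snai2 to -1.33, Twist1 to -0.76, Twist2 to -0.69, Zeb1 to -0.72 and the brighter Zeb2 probe to -0.49, with adjusted p of 0.294 for Snai2 and 0.93 for the others. In 5 of the 6 genes every cordycepin array lay below both no serum arrays, which was the case for 16% of probes and 16.1% of RefSeq mRNA genes, and Zeb2 was the exception.

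Differences between paralogues were tested on the difference between the 2 genes within each array, with exact two-sided permutation tests over arrays, which cannot go below 0.1 in this design. Snai1 dropped by 1.47 more than Snai2 on the log2 scale with cordycepin, and the arrays of both groups did not overlap (exact p = 0.1, adjusted p = 0.2 over 6 tests). Within an array, Snai1 minus Snai2 was -1.66 to -1.01 with cordycepin and -0.36 to 0.51 with serum. For Twist1 against Twist2 the difference of the changes was -0.32 (exact p = 0.1, adjusted p = 0.2). For Zeb1 against Zeb2 it was -0.06 (exact p = 0.9). Between serum and no serum the 3 pairs differed by 0.22, 0.24 and -0.17, with exact p of 0.5, 0.1 and 0.6.

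The genes whose profile over the 8 arrays was nearest to that of Snai1 were Foxc2, Zfp599 and Trmt61a, out of 12538 genes with a RefSeq mRNA probe above background on every array. Likeness was measured as the root mean square difference after the mean of each gene was subtracted, and it was 0.19, 0.26 and 0.26 log2 units. Foxc2, a forkhead factor of mesenchyme that is also used as a marker of EMT, had values of -1.39, -1.04 and -1.08 with cordycepin, 0.74, 0.93 and 0.71 with serum, and 1.13 and 0.86 without serum. It showed the same separation as Snai1, with the cordycepin arrays below all others. Zfp599, a zinc finger gene, differed by -1.73 ± 0.15 (SE) between cordycepin plus serum and serum, and Trmt61a, a subunit of the tRNA m1A methyltransferase, by -1.47 ± 0.16 (SE). None of the 3 was called between serum and no serum.

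**Figure D3:**
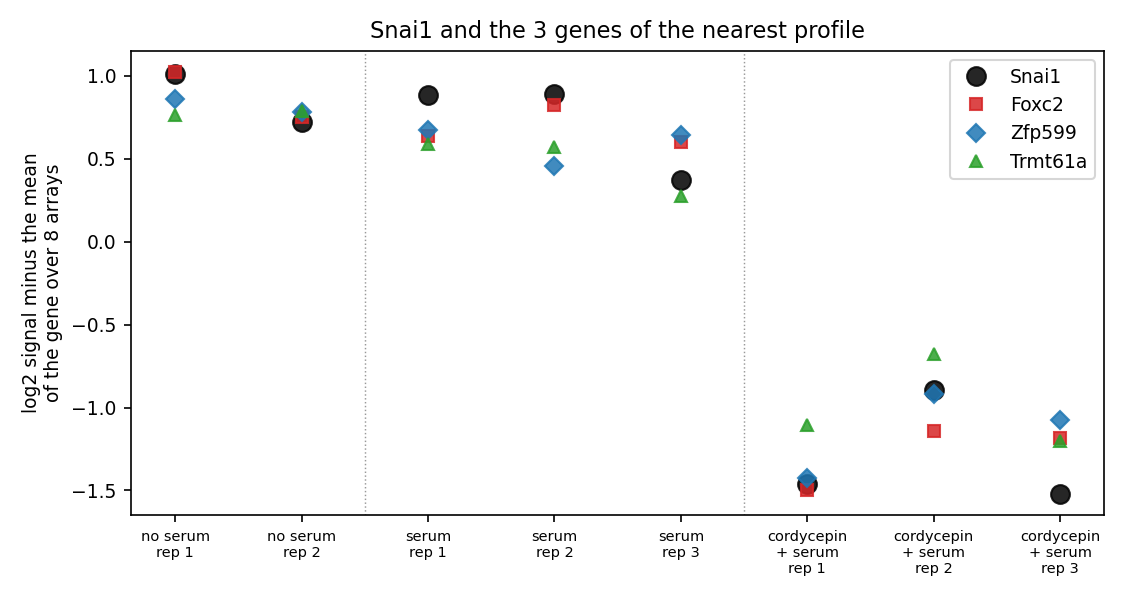
Normalised log2 signal minus the mean of the same gene over the 8 arrays (y axis) for Snai1, Foxc2, Zfp599 and Trmt61a on each array (x axis), with dotted lines between the groups. These 4 genes lie below 0 on all 3 cordycepin plus serum arrays and above 0 on the other 5, which follows from the choice of the 3 genes by this profile.

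Other probes within 100 kb of a member probe were examined next. Of 5 tested probes of neighbouring RefSeq mRNAs, none was called with cordycepin in limma and 1 had an unadjusted p under 0.05. The nearest tested one upstream of Snai1, for the ubiquitin ligase Rnf114, differed by -0.37 ± 0.11 (SE), with an adjusted p of 0.0546 in limma. A second Rnf114 probe, further upstream, differed by -0.15 ± 0.15 (SE), with an adjusted p of 0.519 in limma. Long intergenic non-coding RNAs (lincRNAs) had 17 tested probes near the members. Of these 3 rose with cordycepin, against 7.63% of all probes, and these 3 lay 31609 to 36765 bases downstream of the Snai1 probe. A lincRNA probe on the strand opposite to Snai1 had -1.65, -1.89 and -1.96 with cordycepin, -2.90, -3.03 and -2.97 with serum, and -2.98 and -2.96 without serum. Its cordycepin arrays were the highest, by 1.13 ± 0.12 (SE), with an adjusted p of 0.000291 in limma. The other probes of this lincRNA on that strand were above background on no array and were not tested.

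The other 2 probes belonged to 1 lincRNA on the strand of Snai1. These 2 were tested only because every cordycepin array was above background. Their rises therefore cannot be weighed against the 7.63% of all probes. On the probe 36765 bases downstream, none of the 5 arrays without cordycepin was well above background. The signal with cordycepin was at least 2.07-fold higher than with serum. The adjusted p of 0.00133 in limma belongs to the fitted difference and not to this bound. On the probe 36705 bases downstream, 1 of 3 serum arrays was above background, and the difference was 1.85 ± 0.38 (SE), with an adjusted p of 0.0102. A further 3 tested lincRNA probes in the same stretch were not called, with differences from -0.06 to 0.29. The transcript 3110027N22Rik fell by 1.14 ± 0.30 (SE), with an adjusted p of 0.0306 in limma. Its probe lies on the strand of Zeb2, 4799 bases upstream of the brighter Zeb2 probe and within the span of the Zeb2 gene. Whether it reads RNA of Zeb2 itself or a separate transcript was not tested.

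**Figure D4:**
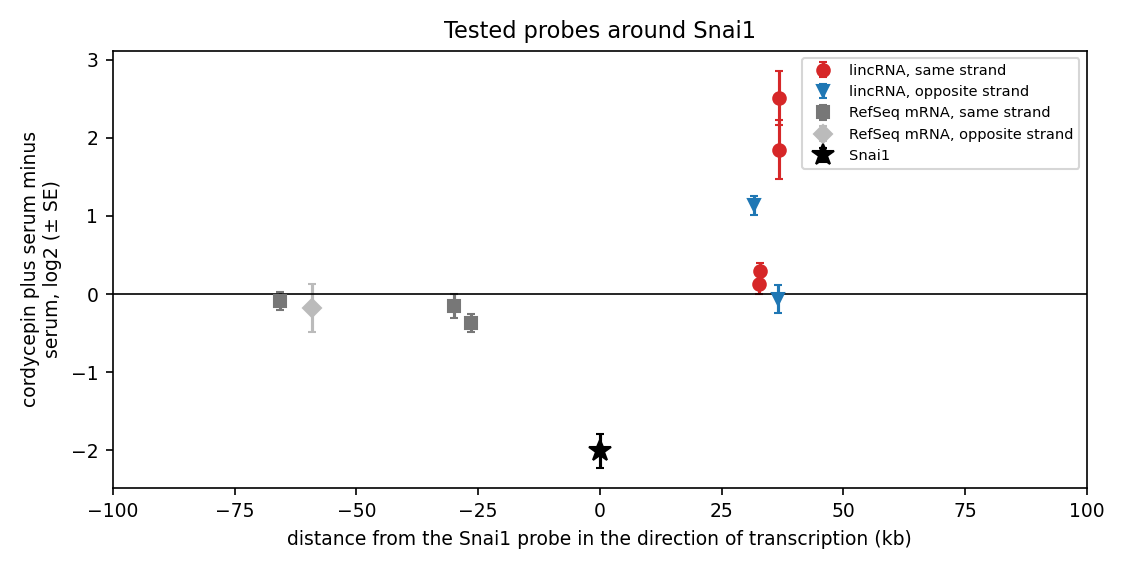
Log2 difference between cordycepin plus serum and serum with its SE (y axis) for tested probes within 100 kb of the Snai1 probe, by their distance in the direction of transcription (x axis, kb). Snai1 (star) is at -2.01, the mRNA probes upstream lie between -0.37 and -0.09, and 3 lincRNA probes downstream lie at 1.13, 1.85 and 2.52, the last as fitted from a group below background.

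Zeb2os, the antisense RNA of Zeb2, was above background on 7 of 8 arrays. All 60 bases of its probe were complementary to one of the listed Zeb2 start windows (GRCm38.p6). In mm9 the Zeb2os probe lay at chromosome 2, 44968736 to 44968795. The 3110027N22Rik probe, at 44847573 to 44847632, lay between it and the brighter Zeb2 probe. The level of Zeb2os was -4.43, -4.42 and -4.33 with cordycepin, -4.15, -5.12 and -4.27 with serum, and -4.54 and -4.13 without serum, which overlap. The difference with cordycepin was 0.12 ± 0.25 (SE), with an adjusted p of 0.776 in limma. Snai3, the third Snail gene of the mouse, was above background on 1 of 8 arrays and was not tested.

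The proteins that work with or against these factors were then examined in lists chosen by function. These lists, and those of the next paragraphs, were chosen with earlier results of these data known. Their shares describe them without a test. Of 19 E-box partners and antagonists, 11 were tested, and 4 of these fell with cordycepin and none rose. That was 36.4% of those tested, against 2.5% of RefSeq mRNA genes called lower. All 4 were Id genes, which encode proteins that bind E proteins and keep them from pairing with factors such as Twist1. Id1 fell by 2.16 ± 0.23 (SE) on the log2 scale, Id2 by 1.03 ± 0.21, Id3 by 1.34 ± 0.17 and Id4 by 1.67 ± 0.20, with adjusted p of 0.00887 or less in limma. The E proteins Tcf3, Tcf4 and Tcf12, which pair with Twist factors, differed by 0.10, -0.02 and 0.15 and were not called, and the list's median was 0.10. With serum, Id1 rose by 1.97 ± 0.26 and Id3 by 2.02 ± 0.20 (SE), as did Scx, a helix-loop-helix factor of tendon, by 1.68 ± 0.31.

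None of 28 corepressors and chromatin partners was called in limma, and their median difference with cordycepin was 0.01. Of these, 5 had an unadjusted p under 0.05, among them Ajuba, a LIM protein that binds the Snail repression domain, at -0.93 ± 0.19 (SE) with an adjusted p of 0.00909. Sin3a, Sirt1 and Smad3 were at -0.55, -0.43 and -0.495, with adjusted p from 0.0137 to 0.0288 in limma. None of 31 tested kinases, ubiquitin ligases and stabilisers of Snail and Twist was called, with a median of 0.04 and 3 genes at an unadjusted p under 0.05. Pak1, a kinase, was higher by 0.41, with an adjusted p of 0.0377 in limma. Of 37 tested inducers of the EMT programme, Hes1, a Notch target, fell by 1.42 ± 0.30 (SE), and the cytokine Lif rose with serum by 1.38 ± 0.20. Hes1 alone was called with cordycepin, 2.7% of the list, near the 2.5% of RefSeq mRNA genes called lower. Gli2, Ccl2 and Lif were at -0.895, -0.77 and -0.63 with cordycepin, short of the minimum for a call, with adjusted p from 0.00514 to 0.0426 in limma.

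Genes that these factors are known to repress or accompany were examined last. Of 42 epithelial genes, 19 were above background on no array, E-cadherin (Cdh1) among them, and 17 were tested. Marveld2, a tight junction protein, and Rab25, a vesicle GTPase, rose with cordycepin by at least 9.50-fold and at least 4.38-fold. The adjusted p of 7.23e-06 and 0.000933 in limma belong to the fitted differences and not to these bounds. Neither was above background on any serum or no serum array, so both were tested only through the cordycepin arrays. These were 11.8% of the 17 tested, against 3.65% of RefSeq mRNA genes called higher, and the median of the 17 was 0.11. The 2 shares are not like for like, because rises were mostly among dim genes. Only 0.571% of RefSeq mRNA genes with a mean above the median of tested probes were called higher. Marveld2 and Rab25 both lay below that median, and an excess of epithelial genes was not tested. Of 42 tested mesenchymal genes, Thbs1, a matrix glycoprotein, fell by 2.05 ± 0.16 (SE), Foxc2 by 1.96 ± 0.14 and the fibronectin receptor subunit Itga5 by 1.65 ± 0.17. These 3 were 7.14% of the list, against 2.5% of RefSeq mRNA genes called lower. Thbs1 and Itga5 also rose with serum, by 1.45 ± 0.18 and 1.29 ± 0.19. The other 39 were not called, with 15 below and 24 above 0, from -0.62 for Tagln (adjusted p = 0.054 in limma) to 0.33 for Gng11, and the list's median was 0.05.

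**Figure D5:**
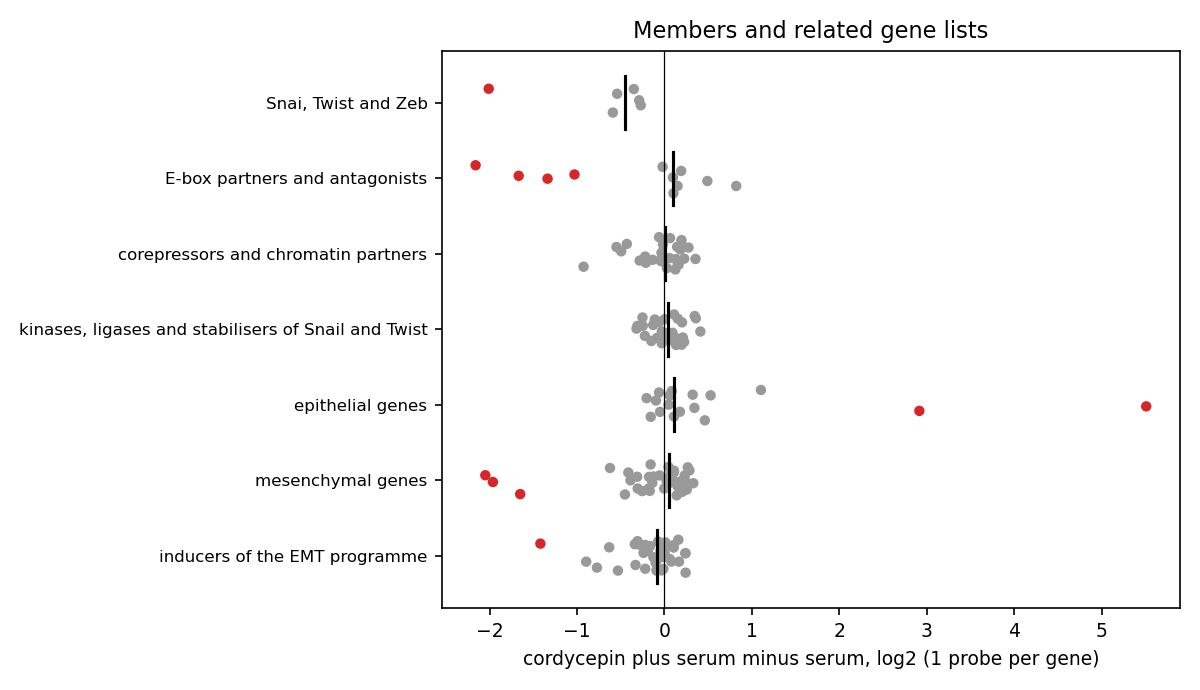
Log2 difference between cordycepin plus serum and serum (x axis) for each tested gene, on 1 probe per gene, in the 6 members and the 6 lists (y axis), with called genes in red and the median of each list as a black bar. The 6 members lie below 0 with a median of -0.45, and the medians of the lists lie between -0.09 and 0.11. The red points among epithelial genes are Marveld2 and Rab25, drawn as fitted although below background without cordycepin.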

How the data were processed

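RNA of 8 NIH3T3 cultures was measured on 1-colour (Cy3) Agilent mouse arrays. The deposited files hold intensity per spot on a linear scale, which the authors extracted with Agilent Feature Extraction 10.7.3.1, including background subtraction and spatial detrending. Probe positions refer to mm9. Centring hides any change common to most transcripts.

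The log2 of the processed signal was centred on the 75th percentile of the non-control spots of the array. Outlier spots were then dropped, and repeated spots of a probe were averaged. The groups were compared in limma 3.58.1 (R 4.3.3) by a model of 3 group means, with two-sided p and Benjamini-Hochberg adjustment over 30852 probes. The calculation was tested on simulated data. The 8 arrays shared a slide and a scan, and the row on the slide and the replicate number were each tried as a block. Alternatives covered background correction, normalisation, centring, filter, blocks, minimum fold change, choice of probe and each array left out.

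A member is represented by its probe with the highest mean. A probe below background on every array of a group gives only a bound, for which its values there were raised, where lower, to the dimmest signal measured above background on that array. Every member was named, with up to 4 called genes a list and comparison, the 3 nearest profiles of a called member, and called probes within 100 kb. The members, lists and tests were chosen with earlier results of these data known. Promoter and start positions are from RefSeq, with entries for 4 of the 6 members.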

Additional observations from a re-analysis of the deposited data

How the results depend on the processing

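The call of Snai1 held in both comparisons with cordycepin under all 16 alternatives, as did the absence of a called member between serum and no serum. For Snai1, which has 1 probe, no minimum fold change and the median of a gene's probes could not remove the call. With no minimum fold change, 3 members were called lower with cordycepin against serum (Snai1, Snai2 and Twist1) and 2 against no serum (Snai1 and Snai2). Leaving out each array gave 1 to 1 members called lower against serum and 1 to 2 against no serum, the latter without the first no serum array. Values that changed sign were small and were not called. With spike-in centring, the serum differences were -0.11 for Twist1, -0.30 for Zeb1 and -0.13 for Zeb2 probe 1, and Zeb2 probe 2 was at 0.00 with cordycepin against serum (-0.004). Zeb2 probe 2 was also at -0.15 with quantile normalisation and -0.07 with the row as a block, and at 0.003 against no serum with normexp. The median of the Zeb2 probes was at -0.069 with serum. The cause was not tested.

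Leaving out each array gave Zeb2 probe 2 from -0.30 to 0.33 with cordycepin against serum and from -0.62 to 0.009 with serum. The serum difference ran from -0.30 to 0.02 for Snai1, from -0.15 to 0.14 for Twist2 and from -0.04 to 0.13 for Zeb1, and the brighter Zeb2 probe ran from -0.24 to 0.094 against no serum. The difference between the changes of Zeb1 and Zeb2 ran from -0.14 to 0.04 with cordycepin and from -0.42 to 0.08 with serum, and that of Snai1 and Snai2 from -0.038 to 0.48 with serum.

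The replicate number of the titles showed no sign of pairing the samples, although so few arrays cannot exclude it. Deviations of same-numbered arrays of cordycepin plus serum and serum correlated at -0.18 to 0.14, and 2 of 6 arrays correlated best with their own number. With the replicate block, the array held 2343 higher and 885 lower calls for cordycepin, beside 2355 and 886 without it, and Snai1 was at -2.01. No member's call changed, the adjusted p of Snai2 was 0.0589, and Twist2 was at 0.02 with serum (0.015). Spike-in centring moved the median of all probes to -0.36 with serum and -0.33 against no serum. All members were above background throughout. The dimmer Zeb2 probe was weak, with processed signals of 37.6 to 133. Its SE for cordycepin plus serum against serum was 0.33, beside 0.12 for the brighter probe. Having only 2 arrays without serum limits the precision of the comparisons with no serum.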
